A study of Rattus norvegicus with 35 samples.

Results

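Male and female rats were compared in the messenger RNA of the kidney cortex on a diet with normal potassium. The genes described are those not on the X or Y chromosome that reached 1 FPKM (fragments scaled by gene length and sequencing depth, a level per length) in at least 5 of the 35 libraries of the experiment. These were 13824 genes of the 32545 in the table, 13770 of them on numbered chromosomes, 34 on the mitochondrial genome and 20 on unplaced contigs. Another 440 X and Y genes passed the same filter and were left out. There were 12 libraries, from 6 males and 6 females, all labelled wild type, with no strain named. All animals, in every group used here, carried a telemeter for blood pressure implanted at 8 weeks of age and then ate a diet with 4% NaCl for 5 weeks. That high salt load is shared by all groups, so no group stands for a low salt state. The normal potassium (NK) diet held 0.36% potassium. Males and females on high potassium (HK, 1.41%, 6 and 5 libraries) and on a potassium-deficient diet (DK, 6 and 6) served to see where the sex difference on NK recurred or differed. Nothing in the labels beyond the names of the samples says that each came from its own animal, so the p-values hold for the spread among these libraries, which may be technical.

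The rat kidney differs between the sexes mainly in the proximal tubule, whose cells take up and secrete organic anions, reabsorb sugars and amino acids and carry cytochromes P450. Testosterone, estrogens and the sex-dependent rhythm of growth hormone release are known to set many of these genes in rodents. Farther along the nephron, the thick ascending limb, the distal tubule and the principal and intercalated cells of the collecting duct adjust sodium, potassium and acid. Because whole cortex was sequenced, fewer cells of a type and less RNA per cell cannot be told apart.

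Each NK library had 13.99 to 15.5 M reads assigned to genes. Eif2s3y, a Y-linked gene, stood at 31.6 to 42.5 FPKM in the males and at most 0.113 FPKM in the females, as labelled. The first principal component of the 12 libraries held 35.1% of the variance and separated the sexes, with females at -33.1 to -20.95 and males at 19.7 to 36.3. Male replicate 2 and female replicate 2 stood farthest from the others of their sex. Mitochondrial transcripts held 7.76% to 11.5% of reads in males and 10.2% to 12.7% in females. The labels also carry sample numbers: 4 female NK libraries lie in the 200s, and 2 female (replicates 4 and 6) and all 6 male libraries in the 300s. What the number series marks is not stated. Values within the 300s, which set 6 males against 2 females, are therefore given beside the results that they change. All HK libraries of both sexes are numbered in the 300s, and the HK comparison shares no library with the NK comparison.

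Sex differences were widespread. Limma, with Benjamini-Hochberg adjustment across every tested gene, called 2901 of the 13824 genes at an adjusted p under 0.05. Of these, 1358 were higher in males and 1543 higher in females, and 152 and 207 differed more than 2-fold. Over all 14264 genes tested, X and Y included, 21% were called, 9.81% higher in males and 11.2% higher in females. The median size of the called differences was 0.50 on the log2 scale. In 1497 genes no male library overlapped with a female one, 696 with males and 801 with females on top, against 10.9% of all genes tested. The direction went with the level of the gene: males were higher in 61.3% of called genes with a mean under 2 FPKM and in 19.4% of those at 100 FPKM or more. The authors' scaling differed between the sexes: the deposited values were 0.86 to 0.93 times those computed from library sums in males and 0.941 to 1.13 times in females. With library sums in its place the median difference of all genes went from -0.01 to 0.12, and 2670 genes were called higher in males and 840 in females, so that the share with males on top rose from 46.8% to 76.1%. Within the 300s 749 genes were called, and 702 of these belonged to the 2901. A fit that took the series as a covariate called 1234, of which 1165 were shared.

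On high potassium, in other libraries, 2751 of the 2901 genes (94.8%) differed in the same direction, against 69.0% of the genes not called on NK. Of the 2901, 1019 were also called on HK in that direction and 1 in the opposite direction, beside 9.92% of all genes tested called on HK. Among genes with a difference over 2-fold, 96.9% had the same direction and 73.8% were called again. The median difference of the 2901 genes was 0.50 on NK and 0.30 on HK in the NK direction. These genes were chosen by their NK values, which raises the NK median, so these medians do not compare the diets. Limma found no gene whose sex difference differed between NK and HK (0% of all genes tested; 784 autosomal genes had an unadjusted p under 0.05, and 6 passed with a weight per library). The plot of differences on both diets shows the larger differences along the diagonal.

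**Figure D1:**
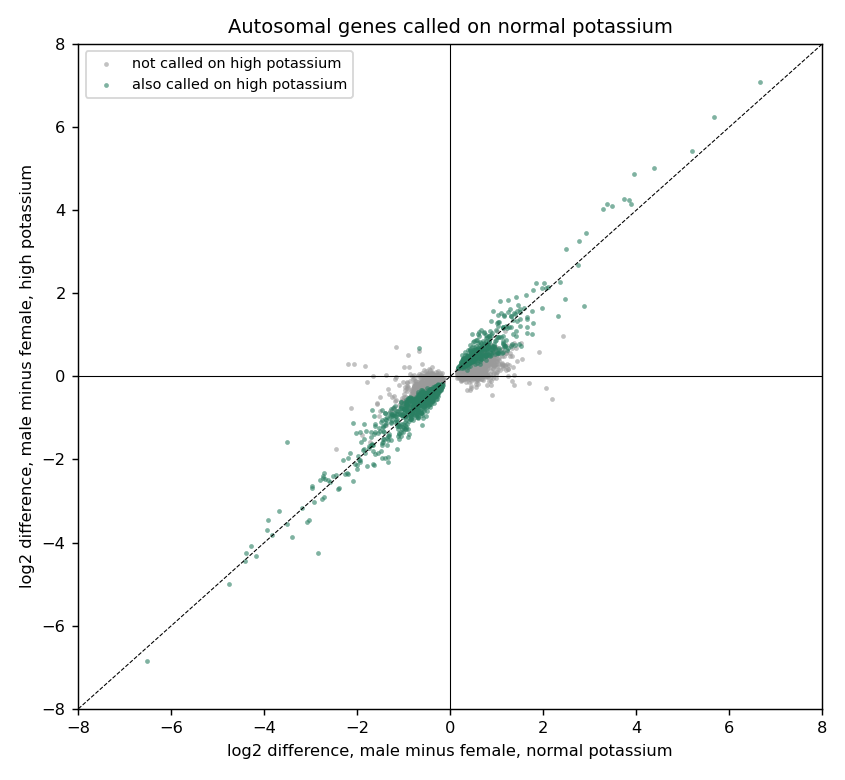
Log2 difference (male minus female) of the 2901 autosomal genes called on normal potassium, 1 point per gene, on normal (x axis) and high potassium (y axis). Colour marks the genes also called on high potassium, 1019 of them in the same direction and 1 in the opposite one; 2751 points lie in the quadrants of equal sign, and the dashed line marks equal differences.

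The largest differences included genes of transport and metabolism. The promoters of the 3 genes with the largest differences in each direction, among those with an entry in RefSeq (build GRCr8), are shown because these genes carry the largest sex differences. Armc3 would have come before Slc22a7 but had no entry. Each runs 5′ to 3′ from 250 bases before to 50 bases after the gene's start. Capitals mark AGAACA, a core motif of the androgen and glucocorticoid receptors, AGGTCA, a core motif of estrogen and other nuclear receptors, and GTTAAT, a core motif of HNF1, on either strand, so that AGAACA may stand as TGTTCT and AGGTCA as TGACCT. Males were higher in Dhrs7l1 (chr6:97047850-97048149, minus strand), Slco1a1 (chr4:176681943-176682242, minus strand) and Slc22a22 (chr7:90639646-90639945, minus strand).
Dhrs7l1: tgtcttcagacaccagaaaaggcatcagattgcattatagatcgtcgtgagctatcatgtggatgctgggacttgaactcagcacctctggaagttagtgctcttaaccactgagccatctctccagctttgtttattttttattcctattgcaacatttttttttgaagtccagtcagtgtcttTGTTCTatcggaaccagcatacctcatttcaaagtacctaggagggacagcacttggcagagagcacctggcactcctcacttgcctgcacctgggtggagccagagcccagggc
Slco1a1: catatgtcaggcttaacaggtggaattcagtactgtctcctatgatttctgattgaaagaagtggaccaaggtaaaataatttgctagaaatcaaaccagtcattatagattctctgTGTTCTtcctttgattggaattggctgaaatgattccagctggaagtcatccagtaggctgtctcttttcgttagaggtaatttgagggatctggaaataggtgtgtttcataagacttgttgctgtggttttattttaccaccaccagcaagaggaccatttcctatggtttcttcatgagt
Slc22a22: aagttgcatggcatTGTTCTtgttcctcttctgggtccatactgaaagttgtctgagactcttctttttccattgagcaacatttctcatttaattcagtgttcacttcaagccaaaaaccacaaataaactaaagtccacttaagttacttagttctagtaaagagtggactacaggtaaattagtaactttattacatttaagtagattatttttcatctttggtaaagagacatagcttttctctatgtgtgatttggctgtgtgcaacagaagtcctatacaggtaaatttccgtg
Females were higher in Akr1b7 (chr4:64043720-64044019, plus strand), Slc22a7 (chr9:22045248-22045547, plus strand) and Slc7a12 (chr2:88868054-88868353, minus strand).
Akr1b7: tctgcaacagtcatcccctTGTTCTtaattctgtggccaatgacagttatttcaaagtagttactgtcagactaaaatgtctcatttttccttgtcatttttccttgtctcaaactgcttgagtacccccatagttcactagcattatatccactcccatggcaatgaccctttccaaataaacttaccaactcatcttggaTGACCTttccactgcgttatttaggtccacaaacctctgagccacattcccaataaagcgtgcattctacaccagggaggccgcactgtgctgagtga
Slc22a7: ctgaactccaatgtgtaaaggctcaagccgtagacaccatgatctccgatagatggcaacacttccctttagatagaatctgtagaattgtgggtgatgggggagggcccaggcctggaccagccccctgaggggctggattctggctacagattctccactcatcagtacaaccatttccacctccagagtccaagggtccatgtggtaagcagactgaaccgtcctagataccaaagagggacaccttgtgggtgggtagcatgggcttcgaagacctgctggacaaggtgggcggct
Slc7a12: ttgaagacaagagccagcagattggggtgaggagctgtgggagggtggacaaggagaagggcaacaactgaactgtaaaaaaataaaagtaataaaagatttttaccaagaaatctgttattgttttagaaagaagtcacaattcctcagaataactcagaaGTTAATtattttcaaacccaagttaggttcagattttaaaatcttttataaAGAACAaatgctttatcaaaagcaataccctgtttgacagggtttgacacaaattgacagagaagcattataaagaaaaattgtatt
AGAACA starts at -65 in Dhrs7l1, -133 in Slco1a1, -236 in Slc22a22, -231 in Akr1b7 and -37 in Slc7a12, counted from the gene's start. AGGTCA starts at -48 in Akr1b7 and GTTAAT at -88 in Slc7a12. Slc22a7 holds none of these motifs, nor of the other 2 searched (TTCNNNGAA, known for STAT5, and CAAAGTCCA, for HNF4). Of the 30 genes with the largest differences, 15 in each direction, 25 had a promoter entry. AGAACA was in 6 of the 14 of genes higher in males and 3 of the 11 of genes higher in females, beside 20.1% of all 27457 promoters in the RefSeq table. AGGTCA was in 2 and 3 of them, beside 15.7%. These are matches of letters and say nothing of binding. Among tested genes the shares were lower than in the RefSeq table. AGAACA was in 11.6% of the promoters of genes called higher in males, 13.3% of those higher in females and 12.3% of those tested and not called, and AGGTCA in 12.8%, 13.7% and 11.7%. Only 66.8% of the 13824 genes had an entry, so these shares cover part of the genes and a comparison of them is void.

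Organic anion transporters were among the genes with the largest differences, in both directions. Slco1a1, an uptake transporter of organic anions such as steroid conjugates, ranged over 13.5 to 59.4 FPKM (median 31.8) in males and 0.0272 to 0.174 FPKM (median 0.0443) in females. The log2 difference, male minus female on log2 of FPKM plus 0.5, was 5.68 (SE 0.38, limma adjusted p = 2.97e-13). Slc22a22, known to carry prostaglandins, was at 15.4 to 39.2 FPKM (median 29.2) against 0.0933 to 0.340 FPKM (median 0.257), a difference of 5.20. Slc51b, a subunit of the basolateral organic solute transporter for bile acids and steroids, was at 35.7 to 155 FPKM (median 62.9) against 3.07 to 9.19 FPKM (median 3.65), a difference of 3.73. In these 3 genes the lowest male library lay above the highest female one, and the differences on HK were 6.25, 5.43 and 4.26. The opposite held for Slc22a7, an organic anion transporter also known as OAT2, with 1.05 to 7.20 FPKM (median 3.21) in males and 37.5 to 93.5 FPKM (median 57.1) in females (log2 difference -4.17, SE 0.36, limma adjusted p = 2.3e-10). Slc22a13, a urate and nicotinate transporter, stood at 0.342 to 2.77 FPKM (median 1.37) against 14.1 to 37.4 FPKM (median 19.4) (-3.69), and Slc22a25, of the same family, at 23.7 to 37.2 FPKM (median 32.8) against 48.5 to 82.3 FPKM (median 70.3) (-1.06). All male libraries were below all female libraries in these 3. Of the 39 organic anion and cation transporters tested, 7 were higher in males, 7 higher in females and 25 did not pass, with a median difference of 0.03 against -0.01 over all autosomal genes. The main renal anion exchangers were among those that did not pass: Slc22a6 (OAT1) had a difference of 0.06 and medians of 398 and 319 FPKM in males and females, and Slc22a8 (OAT3) a difference of -0.37. Slc22a2, the basolateral cation transporter OCT2, was at 87.2 to 176 FPKM (median 133) in males and 64.2 to 116 FPKM (median 85.2) in females (0.56, limma adjusted p = 0.104), with overlapping libraries; its difference on HK was 0.85 (adjusted p = 0.0308).

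**Figure D2:**
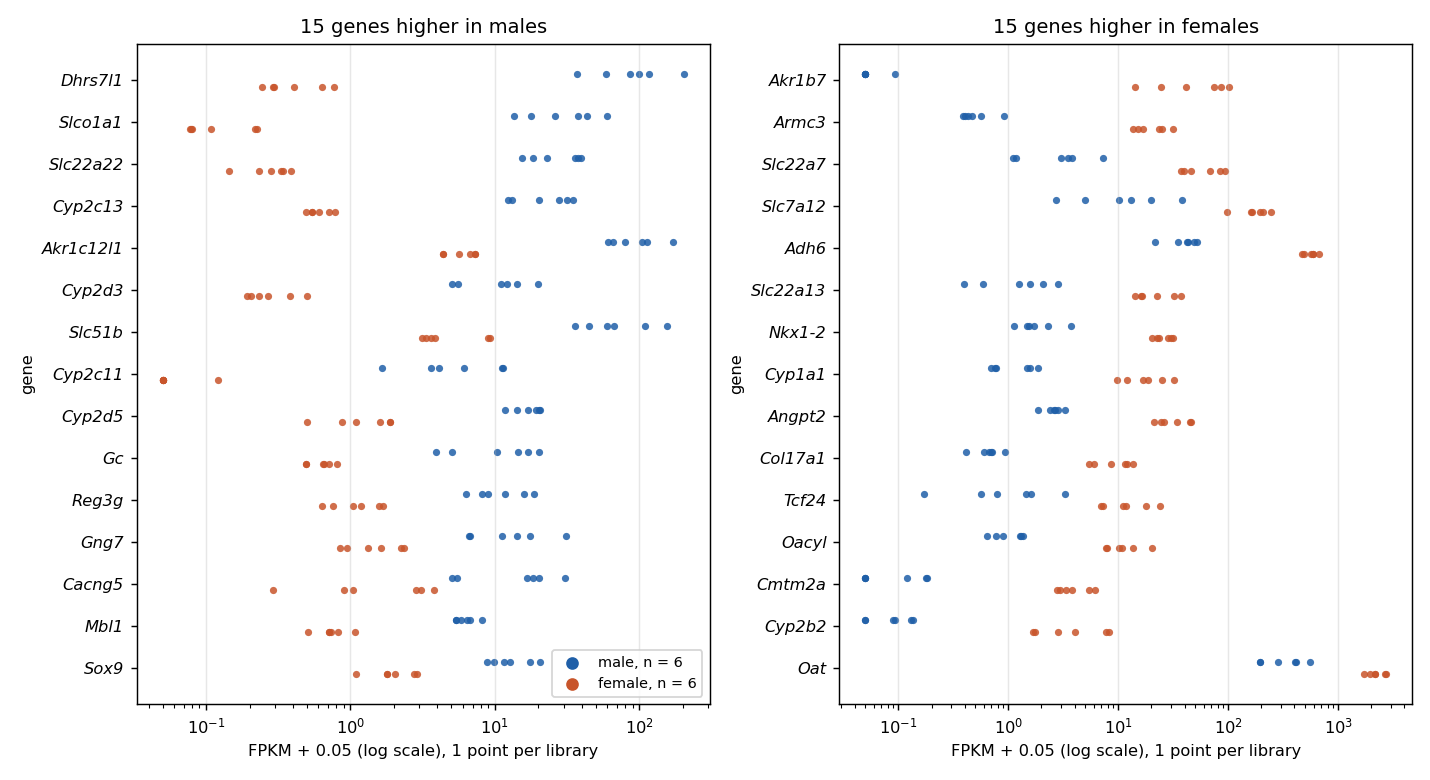
FPKM plus 0.05 per library on a log axis for the 15 genes with the largest log2 difference in each direction; blue points are 6 male and orange points 6 female libraries on normal potassium. In none of the 30 genes do the sexes overlap, and the points of Cyp2c11 in females and of Akr1b7, Cmtm2a and Cyp2b2 in males lie at or near 0 FPKM.

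Cytochromes P450 split in both directions. Cyp2c13, related to the male-specific steroid hydroxylases of rat liver, was at 12.2 to 34.9 FPKM (median 24.1) in males and 0.442 to 0.727 FPKM (median 0.525) in females (4.39, SE 0.31, limma adjusted p = 1.18e-12). Cyp2c11, the main male-specific form of rat liver, was at 1.61 to 11.2 FPKM (median 5.08) in males, and the 6 female libraries held 2 reads together against 1012 in males. The drug-metabolising Cyp2d3 and Cyp2d5 had differences of 3.84 and 3.38, with male libraries at 5.03 to 19.9 FPKM (median 11.5) and 11.7 to 20.6 FPKM (median 18.1). These genes have close paralogs between which reads may be split. Cyp1a1, a target of the aryl hydrocarbon receptor, was higher in females, at 9.61 to 32.2 FPKM (median 17.6) against 0.646 to 1.83 FPKM (median 1.08) in males (-3.51), with a smaller difference of -1.59 on HK. Cyp2b2 was at 1.62 to 8.20 FPKM (median 3.41) in females, while all male libraries together held 6 reads. None of these 6 genes had overlapping libraries. The symbol Cyp4a2, a fatty acid hydroxylase that forms a vasoactive eicosanoid, stands on 2 rows that went opposite ways. The row with more reads was at 1437 to 2044 FPKM (median 1850.0) in males and 402 to 608 FPKM (median 515) in females (1.78, limma adjusted p = 1.49e-10), and the other at 80.4 to 124 FPKM (median 105) in males and at 133 FPKM or more in females (median 200.2, -1.01, adjusted p = 7.86e-05). Near-identical family members make both values uncertain, and only the row with more reads is counted. Of 35 P450 and flavin oxygenase genes tested, 10 were higher in males and 11 in females, 60.0% against 21% of all genes. Cyp2c12, the female-specific form of rat liver, did not reach the filter, at 0.22 FPKM or less in every NK library.

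Steroid and aldehyde metabolism held the largest single difference toward females. Akr1b7, an aldo-keto reductase that clears reactive aldehydes, was at 13.98 to 102 FPKM (median 57.7) in females, with 7411 reads against 1 read in the 6 male libraries together. The fitted log2 difference of -6.52 rests on the pseudocount. Dhrs7l1, of the short-chain dehydrogenase family, had the largest difference toward males, at 36.8 to 203 FPKM (median 92.8) against 0.192 to 0.721 FPKM (median 0.303) (6.66, SE 0.32, limma adjusted p = 8.2e-17). Akr1c12l1 was at 60.8 to 170.3 FPKM (median 92.2) in males and 4.30 to 7.24 FPKM (median 6.14) in females (3.90), and Akr1c13 at 4.08 to 6.27 FPKM (median 5.06) against 1.44 to 2.72 FPKM (median 2.13) (1.08). Other members of the aldo-keto family went the other way: Akr1c14, which reduces dihydrotestosterone, was at 1.52 to 10.8 FPKM (median 2.35) in males and 6.10 to 16.2 FPKM (median 10.7) in females (-1.75), and Akr1c1 had a difference of -1.05. Akr1c14 was the only one with overlap, from male replicate 2 at 10.8 FPKM, and reads of this family may be split between its members. Hsd17b2, which inactivates testosterone and estradiol, was at 2.06 to 8.26 FPKM (median 5.48) against 11.6 to 22.6 FPKM (median 18.0) (-1.68). Rdh10, which oxidises retinol, was higher in males (0.79), and Adh6, an alcohol dehydrogenase, was at 21.4 to 51.4 FPKM (median 42.7) in males and 469 to 666 FPKM (median 575) in females (-3.83, limma adjusted p = 3.3e-16). Of 29 steroid and sex hormone genes tested, 7 were higher in males and 8 in females, with a median of -0.01, or 0.09 with library sums. Within the 300s Akr1c13 (adjusted p = 0.0774) and Rdh10 (0.50, 0.286) did not pass.

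The receptors for prolactin and estrogen were higher in males. Prlr, the prolactin receptor, was at 12.6 to 36.0 FPKM (median 24.8) in males and 4.30 to 7.58 FPKM (median 5.80) in females (1.84, SE 0.28, limma adjusted p = 1.39e-05). Esr1, estrogen receptor alpha, was at 5.47 to 8.79 FPKM (median 6.63) against 2.73 to 3.54 FPKM (median 2.998) (1.04, adjusted p = 0.00211), also higher in males, with no overlap in either gene. Bcl6, a repressor that answers growth hormone in liver, was higher in males (1.12), though 1 or more libraries overlapped. The growth hormone receptor Ghr did not pass (-0.36, adjusted p = 0.0516). The growth factor genes Igf1 and Egf were higher in females: Igf1 was at 2.02 to 4.30 FPKM (median 2.93) in males and 6.80 to 16.3 FPKM (median 10.2) in females (-1.71), and Egf, made in the thick ascending limb and distal tubule, at 13.6 to 28.9 FPKM (median 22.6) against 46.8 to 70.0 FPKM (median 56.5) (-1.40). The estrogen-related receptor Esrrb (-1.19) and the oxytocin receptor Oxtr (-1.17) were higher in females without overlap, Oxtr on a low level of at most 2.49 FPKM. On HK the differences of Prlr, Esr1, Igf1 and Egf were 2.24, 1.32, -1.34 and -1.17, each called. Of 38 receptor genes and regulators tested, 5 were higher in males and 8 in females. Within the 300s Bcl6 did not pass (adjusted p = 0.0691).

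Angiotensinogen led the vasoactive genes. Agt, the precursor of angiotensin, was at 9.93 to 57.1 FPKM (median 27.4) in males and 1.99 to 7.17 FPKM (median 4.87) in females (2.37, SE 0.41, limma adjusted p = 6.53e-05), with all males above all females; on HK the difference was 2.27 (adjusted p = 0.00033), and within the 300s 1.87 (adjusted p = 0.0698). Hpgd, which inactivates prostaglandins, was at 28.7 to 43.8 FPKM (median 32.8) against 8.98 to 16.1 FPKM (median 11.3) (1.5), and Edn1, the endothelin precursor, at 3.84 to 4.92 FPKM (median 4.42) against 1.27 to 2.29 FPKM (median 1.59) (1.16), both apart. Ptger3, a prostaglandin E receptor of the distal nephron (0.83), and the prostaglandin D synthase Ptgds (0.92) were higher in males. Of the other angiotensin genes, the receptor Agtr1a was lower in males (-0.39, adjusted p = 0.00713), and the converting enzyme Ace did not pass (-0.41, adjusted p = 0.0915). Mme, neprilysin, which degrades several vasoactive peptides, was lower in males (-0.82, adjusted p = 0.0373). Its call ended with library sums (0.0808), within the 300s (0.109) and without any of female replicates 1, 3, 4 and 6 or male replicates 3, 4 and 5 (up to 0.11). Agtr1a lost its call with library sums (adjusted p = 0.109) and within the 300s (0.319), and Ptgds within the 300s (0.145). Of 25 renin, kinin and prostaglandin genes tested, 5 were higher in males and 2 in females.

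Among transporters of amino acids and sugars more were called higher in females than in males. Slc7a12, an amino acid transporter of the cationic family, was at 2.68 to 37.9 FPKM (median 11.5) in males and 97.1 to 247 FPKM (median 179) in females (-3.95, SE 0.48, limma adjusted p = 2.59e-07). Slc7a13, the aspartate and cystine carrier of the last proximal segment, was at 80.2 to 426 FPKM (median 255) against 497 to 1190.0 FPKM (median 727) (-1.90), and the peptide transporters Slc15a2 and Slc15a1 differed by -1.10 and -0.86. Of the sodium-coupled sugar and monocarboxylate carriers, Slc5a10 was at 38.9 to 81.7 FPKM (median 59.5) against 90.5 to 145 FPKM (median 129.7) (-1.15), and Slc5a8, which takes up lactate, at -0.85 (adjusted p = 0.0174, or 0.0553 without female replicate 6). The glucose transporter of the late proximal tubule, Slc5a1, was lower in males by a narrow call (-0.66, adjusted p = 0.0358). This call ended with library sums (adjusted p = 0.106) and without any of female replicates 1, 4 and 6 or male replicates 3, 4 and 5 (up to 0.119). The early, high-capacity Slc5a2 did not pass (-0.30, adjusted p = 0.325), and Slc2a2, the basolateral glucose exit, was higher in males, at 62.01 to 75.2 FPKM (median 68.8) against 33.7 to 58.0 FPKM (median 46.9) (0.57). Of 31 glucose and amino acid transporters tested, 2 were higher in males, 12 in females and 17 did not pass, with a median of -0.28, or -0.14 with library sums. On HK 1 was higher in males and 5 in females, and within the 300s 1 and 7. Slc15a1 did not pass within the 300s (-0.52, adjusted p = 0.432), where Slc5a8 and Slc5a1 differed by -1.34 and -1.08.

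Enzymes of amino acid breakdown were also called mainly on the female side. Oat, the ornithine aminotransferase of mitochondria, was at 192 to 558 FPKM (median 343) in males and 1707 to 2741 FPKM (median 2168) in females (-2.80, SE 0.23, limma adjusted p = 4.76e-11). In the tyrosine pathway, Hpd was at 267.5 to 469.6 FPKM (median 424) against 750.3 to 1192 FPKM (median 951) (-1.24), and Fah, its last enzyme, at 104 to 124 FPKM (median 115) against 186 to 320.4 FPKM (median 279.5) (-1.23), all apart. Tat, the first enzyme of that pathway, was low in both sexes on NK, at 0.450 to 1.62 FPKM (median 0.944) in females, and the 6 male libraries held 2 reads together. Cth, of cysteine synthesis, differed by -1.10 (adjusted p = 0.0747 within the 300s). Sds, a serine dehydratase, differed by -1.33 with overlap, and lost its call without female replicate 1 or 6 or male replicate 6 (adjusted p up to 0.0654) and within the 300s (-2.04, 0.0534). Bcat1, a branched-chain aminotransferase, was one of 3 members higher in males (0.97, adjusted p = 0.29 within the 300s). Of 58 amino acid and one-carbon genes tested, 26 were higher in females, 3 higher in males and 29 did not pass, with a median of -0.30, or -0.16 with library sums. On HK the counts were 13 and 2, and within the 300s 10 and 1.

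Fatty acid oxidation had 13 of 45 members higher in females and 2 in males, and on HK 12 and 2. Acox2, a peroxisomal oxidase of bile acid intermediates, was at 1.44 to 5.12 FPKM (median 2.84) in males and 9.95 to 24.9 FPKM (median 18.1) in females (-2.47, SE 0.28, limma adjusted p = 5.09e-08). Crot, which exports fatty acids from peroxisomes (-0.72), the acyl-CoA synthetase Acsl1 (-0.70) and the thiolase Acaa2 (-0.80; adjusted p = 0.0747 within the 300s) were lower in males without overlap. Fdft1, which makes squalene at the first step committed to sterols, was at 26.3 to 34.0 FPKM (median 30.4) in males and 81.0 to 108 FPKM (median 97.4) in females (-1.65, SE 0.10, adjusted p = 5.86e-14). Of 38 lipid and cholesterol genes, 5 were higher in males, 2 in females and 31 did not pass, 18.4% called against 21% of all genes. The other member higher in females was Acacb, an acetyl-CoA carboxylase (-0.83), and those higher in males included the cholesterol exporters Abca1 (0.77) and Abcg1 (0.59) and the lipid droplet coat Plin2 (0.61). Abca1 (adjusted p = 0.109) and Plin2 (0.30, 0.359) did not pass within the 300s. Sugar metabolism had 5 of 28 called, 17.9% against 21% of all genes. Among them were the pyruvate kinase Pklr, higher in males (0.88), and the fructose kinase Khk, higher in females (-0.64, limma adjusted p = 0.152 within the 300s).

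Conjugating enzymes were called in 46.8% of the genes tested, more of them higher in females than in males. Ces1d, a carboxylesterase, was at 5.11 to 8.37 FPKM (median 7.67) in males and 30.5 to 76.6 FPKM (median 49.7) in females (-2.72, SE 0.21, limma adjusted p = 1.5e-11), and Acsm5, which activates medium-chain acids for glycine conjugation, at 4.20 to 5.70 FPKM (median 4.92) against 16.5 to 26.1 FPKM (median 20.98) (-1.94). Gsta3, a glutathione transferase (-1.71), the sulfotransferase Sult2b1 (-0.98) and the glucuronosyltransferase Ugt1a8 (-0.96) were also lower in males, with no overlap. Gstm1, another glutathione transferase, was higher in males, at 36.0 to 68.3 FPKM (median 61.5) against 15.03 to 26.4 FPKM (median 18.7) (1.54); its difference on HK was 0.41 (adjusted p = 0.481), and within the 300s its adjusted p was 0.0639. Of 47 conjugation genes tested, 6 were higher in males, 16 in females and 25 did not pass. Sod3, the extracellular superoxide dismutase, was at 226 to 301 FPKM (median 262) in males and 565 to 816 FPKM (median 723) in females (-1.42, SE 0.13, adjusted p = 3.91e-10), and Osgin1, an oxidative stress response gene, differed by -1.14 with overlap. Hmox1, the heme oxygenase, was higher in males (2.06), with male replicate 5 at 439 FPKM against a male median of 53.8. Its adjusted p was 0.0378, and up to 0.131 without 1 of female replicates 1, 3, 5 and 6 or male replicates 3, 4 and 5, and 0.492 within the 300s. Gpx3, the secreted glutathione peroxidase, was among the most abundant transcripts, at 7116 to 14980.0 FPKM (median 13700.0) in males and 14970.0 to 29190.0 FPKM (median 17730.0) in females (-0.67, adjusted p = 0.0193). It did not pass within the 300s (-0.37, 0.57) or without female replicate 2 or 3 or male replicate 2 (up to 0.0738). Of 27 oxidative stress genes, 3 were higher in males and 5 in females, 29.6% called against 21% of all genes.

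**Figure D3:**
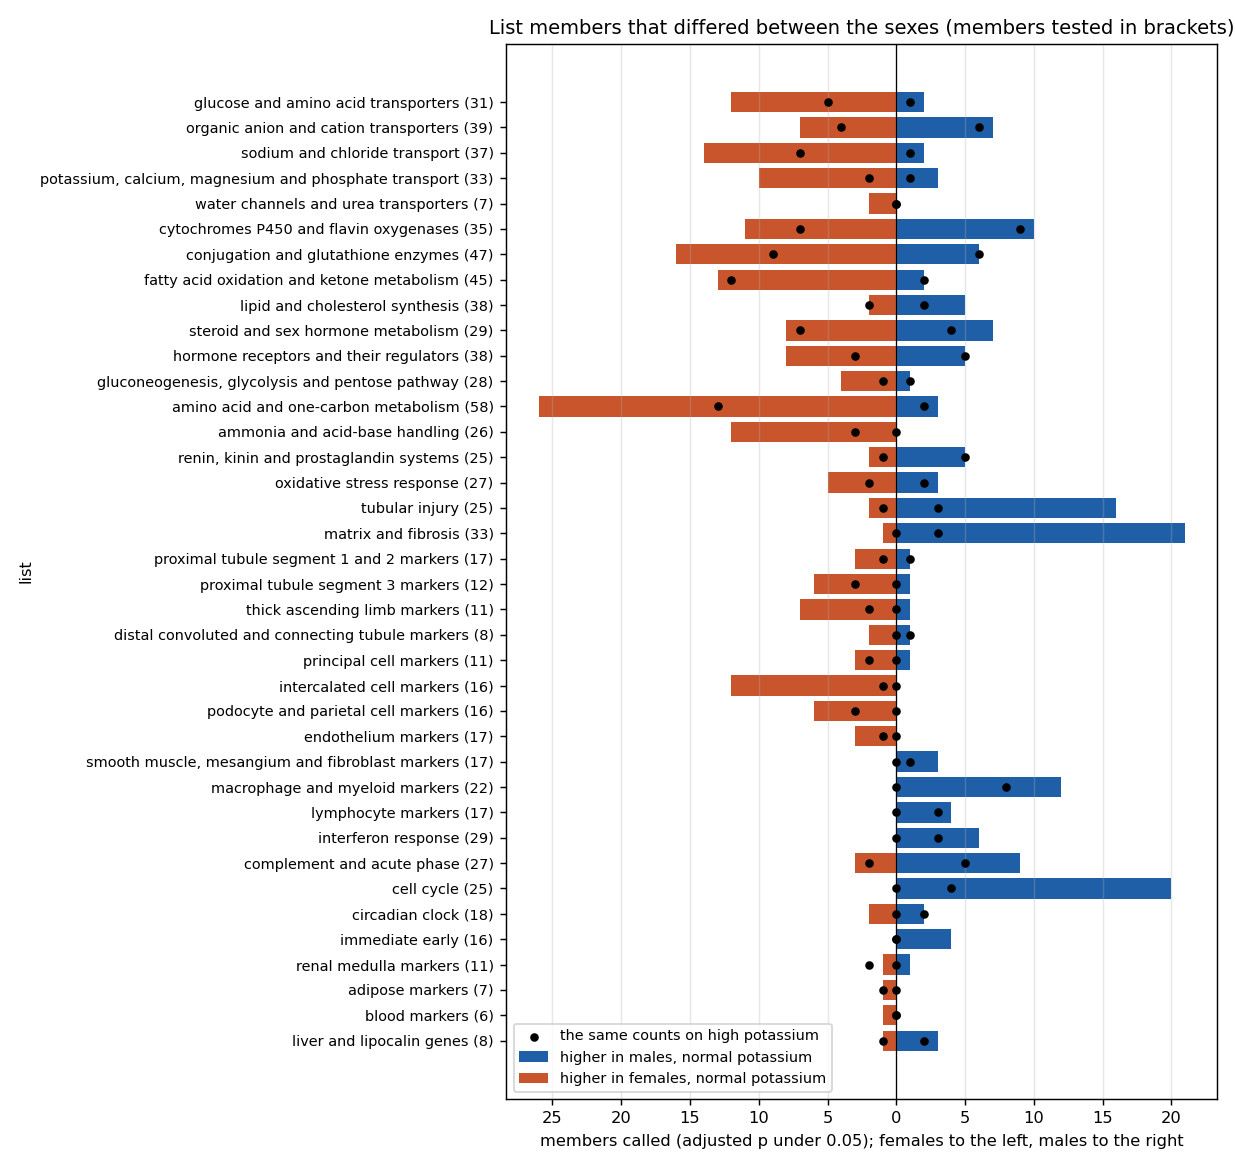
Number of members of each list called higher in females (orange, left) and higher in males (blue, right) on normal potassium; the members tested stand in brackets and black points give the same counts on high potassium. Cell cycle genes reach 20 on the male side and amino acid metabolism 26 on the female side, while on high potassium they reach 4 and 13.

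Among sodium and chloride transport genes more were called lower in males than higher. Of 37 tested, 14 were higher in females, 2 in males and 21 did not pass, with a median of -0.31, or -0.16 with library sums. The counts were 7 and 1 on HK and 0 and 0 within the 300s. Slc9a3, the sodium-proton exchanger of the proximal tubule, was at 12.2 to 25.5 FPKM (median 20.9) in males and 24.4 to 38.7 FPKM (median 33.2) in females (-0.78, SE 0.18, limma adjusted p = 0.00238). Bsnd, the barttin subunit, differed by -0.69 without overlap. In the collecting duct, the epithelial sodium channel subunit Scnn1a was lower in males (-0.64, adjusted p = 0.00286), as were its activating protease Prss8 (-0.58) and the pump regulator Fxyd4 (-0.83). Scnn1g passed narrowly (-0.47, adjusted p = 0.0428), but not with library sums (0.145) or without any of female replicates 1, 2, 3 and 5 or male replicates 1, 2, 5 and 6 (up to 0.119). Scnn1b did not pass (-0.43, adjusted p = 0.0589). Of the salt transporters targeted by diuretics, Slc12a1 and Slc12a3 did not pass either. Slc12a1 of the thick ascending limb was at 45.6 to 101 FPKM (median 74.1) in males and 68.1 to 185 FPKM (median 108) in females (-0.61, adjusted p = 0.0696). Slc12a3 of the distal convoluted tubule was at 34.9 to 120.5 FPKM (median 99.5) against 83.3 to 146 FPKM (median 111) (-0.38, adjusted p = 0.208). Within the 300s none of the called genes of this list passed, with adjusted p of 0.316 for Slc9a3, 0.0878 for Bsnd, 0.436 for Scnn1a, 0.0591 for Prss8, 0.161 for Fxyd4 and 0.597 for Scnn1g. The differences of Scnn1a and Scnn1g were -0.35 and -0.23 there.

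Channels and carriers of potassium, calcium and phosphate were called in 13 of 33 genes, 10 higher in females and 3 in males, 39.4% against 21% of all genes. On HK 2 were higher in females and 1 in males, and with library sums on NK 5 and 3. Kcnj1, the secretory potassium channel ROMK, was at 43.4 to 66.1 FPKM (median 51.8) in males and 77.8 to 118 FPKM (median 83.7) in females (-0.71, SE 0.16, limma adjusted p = 0.00136), and Kcnj16, a basolateral potassium channel, at 184 to 339.5 FPKM (median 304) against 382 to 606 FPKM (median 421) (-0.70), both apart. Kcnj10, the partner of Kcnj16, did not pass (-0.42, adjusted p = 0.253). Calb1, the calcium buffer of the distal tubule, was lower in males (-1.34), with overlap, and the calcium channel Trpv6 higher (0.88). On HK Calb1 and Trpv6 differed by -0.29 and 0.13 (limma adjusted p = 0.631 and 0.802). Cyp24a1, which degrades vitamin D, was higher in males (0.88, adjusted p = 0.03), and up to 0.071 without female replicate 2 or 3 or male replicate 3. The phosphate carrier Slc34a2 was higher in males, at 35.1 to 122 FPKM (median 47.6) against 11.1 to 49.6 FPKM (median 23.8) (1.24), while the main proximal carrier Slc34a1 did not pass (-0.42, adjusted p = 0.0534). Aqp6 (-0.50) and Aqp11 (-0.50) were the 2 of 7 water and urea channels called, 28.6% against 21% of all genes. Aqp1 (-0.06, 0.08 with library sums) and the vasopressin-regulated Aqp2 (-0.77, limma adjusted p = 0.0886) did not pass. Within the 300s none of the called genes named in this paragraph passed. Their adjusted p were 0.128 for Kcnj1, 0.152 for Kcnj16, 0.689 for Calb1, 0.269 for Trpv6, 0.296 for Cyp24a1, 0.521 for Slc34a2, 0.207 for Aqp6 and 0.306 for Aqp11. The differences of Calb1 and Slc34a2 shrank there to -0.43 and 0.67, while those of Trpv6 (0.80), Aqp6 (-0.41) and Aqp11 (-0.41) stayed closer to their values over all libraries.

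Acid secretion genes of intercalated cells were lower in males, as were other markers of these cells. Slc4a1, the anion exchanger of type A intercalated cells and of red cells, was at 15.97 to 31.5 FPKM (median 24.6) in males and 32.5 to 65.9 FPKM (median 43.3) in females (-0.90, SE 0.17, limma adjusted p = 0.000266). The ammonia channel Rhcg was at 25.1 to 57.0 FPKM (median 47.2) against 65.2 to 91.8 FPKM (median 78.0) (-0.83), also apart, and the proton pump subunits Atp6v1c2 and Atp6v1b1 differed by -0.78 and -0.71. Gpt, an alanine aminotransferase, differed by -0.84. Of 26 ammonia and acid-base genes 12 were higher in females and 0 in males, and of 16 intercalated cell markers 12 and 0, with medians of -0.48 and -0.63, or -0.34 and -0.49 with library sums. The intercalated markers had a median of -0.45 on HK, where 1 was called, and of -0.40 within the 300s, where 1 was called. Slc4a1 passed within the 300s (adjusted p = 0.0324), and Rhcg (0.088), Atp6v1c2 (0.25) and Atp6v1b1 (0.27) did not.

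Nephron segments were followed by the summed FPKM of their markers, compared by a two-sided exact permutation test with adjustment over 15 lists. These lists were chosen with earlier results of these data known, so the p-values of the sums, here and below, are no independent support. Proximal segment 3 markers summed to 890 to 1754 FPKM in males and 1651 to 3200 in females (log2 difference -0.92, adjusted p = 0.013). Slc22a7, Slc22a13, Acox2 and Slc7a13, described above, belong to this list, in which 6 of 12 members were higher in females and 1 in males, 58.3% called against 21% of all genes. The sum without these named genes was not tested. The sum for segments 1 and 2 did not pass (5507 to 9808 against 8039 to 13590.0 FPKM, adjusted p = 0.192). There, 1 of 17 members was higher in males and 3 in females, 23.5% called against 21% of all genes. Those higher in females were the endocytic receptors Cubn, at 38.8 to 72.9 FPKM (median 52.1) against 74.2 to 149.9 FPKM (median 108) (-1.05), and Lrp2 (-0.50, limma adjusted p = 0.0415) and the scaffold Pdzk1 (-0.59). Lrp2 lost its call with library sums (adjusted p = 0.139), within the 300s (0.35) and without any of female replicates 1, 2, 3 and 4 or male replicates 1, 2 and 5 (up to 0.118). Thick ascending limb markers summed to 893 to 1323 FPKM in males and 1607 to 2241 in females (-0.72, adjusted p = 0.0108). Of 11 members 7 were higher in females and 1, Ptger3, in males, 72.7% called against 21% of all genes. On HK 2 were higher in females and 0 in males, and within the 300s 2 and 1. Umod, the main secreted protein of this segment, was at 619.9 to 968 FPKM (median 871) against 1176 to 1558 FPKM (median 1457) (-0.77, limma adjusted p = 0.0048), and Tmem207 and Ppp1r1a differed by -0.99 and -0.92, all 3 apart. Umod held most of the thick ascending limb sum, whose medians were 1220 FPKM in males and 1933 FPKM in females. The sum without Umod was not tested. Principal cell sums (-0.43) and intercalated cell sums (-0.63) were apart as well, each with an adjusted p of 0.0108. The distal convoluted and connecting tubule sum did not pass (-0.61, adjusted p = 0.0974). Male replicate 2 had the lowest sum of the males for the lists of segments 1 and 2, the distal tubule, principal cells, intercalated cells and podocytes. Its part in these results was not tested beyond leaving it out. Without it 6 of the 15 sums passed, against 8 with all libraries. Within the 300s Umod (0.169), Ppp1r1a (0.181) and Pdzk1 (-0.38, 0.223) did not pass.

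Markers of the other cortical structures gave fewer calls. Podocyte and parietal cell markers summed to 228 to 334 FPKM in males and 316 to 348.6 in females (-0.21, exact permutation adjusted p = 0.0216), with 6 of 16 members higher in females, among them the phospholipase Plce1 (-0.62). With library sums 2 of these markers were called higher in females and 1 in males. The endothelial sum did not pass (adjusted p = 0.12), with 3 of 17 members higher in females, 17.65% called against 21% of all genes. One was Vwf, the von Willebrand factor, at 3.27 to 4.95 FPKM (median 3.77) against 9.97 to 15.9 FPKM (median 12.2) (-1.55). The smooth muscle, mesangium and fibroblast sum did not pass either (adjusted p = 0.26). There 3 of 17 members, also 17.65%, were higher in males: Tagln (0.60), Des (0.51) and Col1a1 (0.94), named here after their values were seen. Each of these 3 lost its call when certain single libraries were left out (limma adjusted p up to 0.119, 0.0716 and 0.0775). Within the 300s none of them passed (0.465, 0.507 and 0.366), and the median of the list went from 0.31 to -0.09. Medulla markers, chosen for inner tissue carried with the cortex, summed to 146 to 244 FPKM in males and 218 to 318 in females (-0.47, adjusted p = 0.0232). Of 11 members tested 1 was called higher in males and 1 in females. Genes such as Aqp2, at means of 55.2 and 93.0 FPKM in males and females, and Fxyd4 also belong to the principal cell list. The medulla sum is therefore no measure of inner tissue alone. Its difference lies in the same direction as those of the thick ascending limb and collecting duct lists, and its part in them was not tested. Adrenal markers summed to 4.83 to 6.97 FPKM over all 12 libraries. Adipose markers were led by female replicate 4 at 602.5 FPKM, where no male library passed 65.2 FPKM, and blood markers by female replicate 2 and male replicate 2 at 918.5 and 696 FPKM. Plin1, the coat of fat droplets in adipocytes, was at 0 to 0.577 FPKM (median 0.0721) in males and 0.839 to 25.8 FPKM (median 1.69) in females (-2.27, and -3.74 within the 300s), female replicate 4 being the highest.

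**Figure D4:**
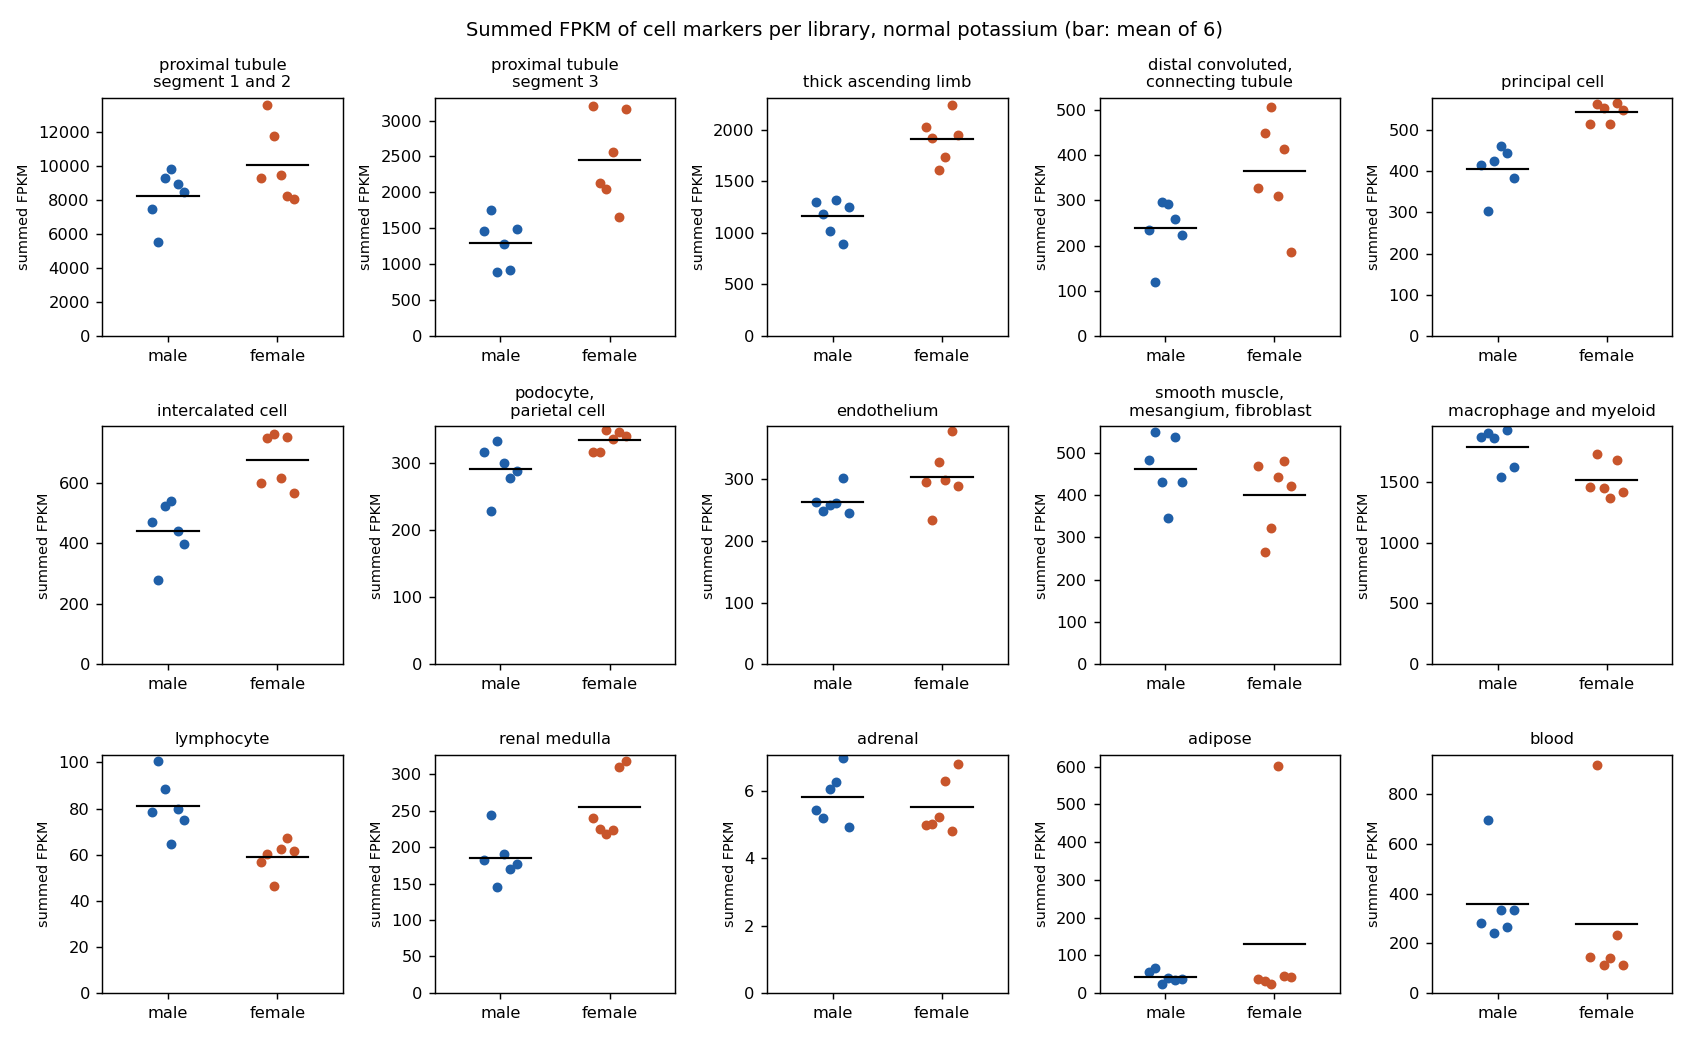
Summed FPKM of the markers of 15 cell types or tissues in each normal potassium library (y axis from 0), males in blue and females in orange, with the mean of 6 as a bar. The thick ascending limb, principal and intercalated cell sums do not overlap between the sexes, while a single female library carries the highest adipose sum of 602.5 FPKM.

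Injury and repair genes were higher in males on normal potassium. Havcr1, the tubular injury marker KIM-1, was at 54.0 to 111 FPKM (median 76.3) in males and 14.1 to 50.8 FPKM (median 22.3) in females (1.69, SE 0.43, limma adjusted p = 0.005). Lcn2, a secreted lipocalin, was at 48.8 to 115 FPKM (median 71.3) against 14.4 to 48.5 FPKM (median 28.7) (1.37), and Sox9, a factor of tubular repair, at 8.79 to 20.4 FPKM (median 12.1) against 1.05 to 2.83 FPKM (median 1.86) (2.46). In these 3 genes every male library lay above every female one. Spp1, osteopontin, was at 2896 to 6409 FPKM (median 4364) against 902 to 3116 FPKM (median 1527) (1.36), with overlap, and Gpnmb (1.22) and the trefoil factor Tff3 (1.58) were higher in males too. Of 25 injury genes tested 16 were higher in males and 2 in females (72.0% called), with a median of 0.67. On HK the counts were 3 and 1 and the median 0.03, and within the 300s 2 and 1 and 0.50. Havcr1 was at 24.9 to 107 FPKM in males and 23.9 to 75.3 FPKM in females on HK (-0.17, adjusted p = 0.852), and Lcn2 and Spp1 differed there by -0.20 and 0.03, whereas Sox9 differed by 1.86 (adjusted p = 1.16e-06). The difference between the diets was not called for any of these genes. Within the 300s Havcr1 (0.366), Lcn2 (0.352), Spp1 (0.329) and Tff3 (0.305) did not pass.

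Most matrix and cell cycle genes tested were higher in males. Tnc, tenascin, was at 2.88 to 4.75 FPKM (median 3.96) in males and 0.600 to 2.05 FPKM (median 1.34) in females (1.28), and Col1a2, of fibrillar collagen, at 16.4 to 28.5 FPKM (median 22.6) against 6.002 to 16.2 FPKM (median 11.9) (0.99, SE 0.24, limma adjusted p = 0.00328), both apart. Fibronectin Fn1 (0.95) and fibrillin Fbn1 (0.98) overlapped. Of 33 matrix genes, 21 were higher in males and 1 in females, with a median of 0.68, and on HK 3 and 0 with 0.30. Among cell cycle genes the mitotic kinase Plk1 was at 2.15 to 3.47 FPKM (median 2.90) against 0.665 to 1.33 FPKM (median 1.02) (1.2, adjusted p = 1.73e-06), the cyclin Ccnb1 at 4.22 to 5.95 FPKM (median 4.54) against 1.76 to 2.84 FPKM (median 2.33) (0.93), and Mki67 and Prc1 differed by 0.88 and 0.88, all 4 without overlap. Of 25 cell cycle genes 20 were higher in males and 0 in females, 80.0% called, and 16 did not overlap between the sexes. Within the 300s 11 of the 25 passed, Plk1, Ccnb1, Mki67 and Prc1 among them, and on HK 4. The matrix genes Tnc (0.166), Col1a2 (0.0506), Fn1 (0.222) and Fbn1 (0.134) did not pass within the 300s.

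Summed macrophage and lymphocyte markers were higher in males. Macrophage and myeloid markers summed to 1540.0 to 1924 FPKM in males and 1361 to 1723 in females (0.24, exact permutation adjusted p = 0.0365), and lymphocyte markers to 64.7 to 101 against 46.4 to 67.3 FPKM (0.45, adjusted p = 0.013). Of 22 macrophage genes 12 were higher in males and 0 in females. Csf1r, the receptor that sustains macrophages, was at 23.2 to 33.0 FPKM (median 28.2) against 13.2 to 21.3 FPKM (median 17.6) (0.70, SE 0.15, limma adjusted p = 0.000969), and Cd68, of phagocytes, at 12.8 to 16.7 FPKM (median 13.8) against 6.74 to 10.99 FPKM (median 9.28) (0.65), both apart. The complement subunit C1qb differed by 0.62, and lost its call without male replicate 2 (adjusted p = 0.0632). Of 17 lymphocyte genes 4 were higher in males, a share of 23.5% near the 21% of all genes, among them Cd4 (0.52) and the leukocyte phosphatase Ptprc (0.49), the latter with an adjusted p of up to 0.0626 without female replicate 2 or 3 or male replicate 2. On HK 8 macrophage and 3 lymphocyte genes were called higher in males. Of 29 interferon response genes 6 were higher in males and 0 in females, with a share of 20.7% near that of all genes; Rsad2 (0.73), Irf1 (0.69) and Gbp2 (0.68) had no overlap. Within the 300s 1 macrophage gene, 0 lymphocyte genes and 1 interferon gene passed: Csf1r (0.115), Cd68 (0.203), C1qb (0.285), Cd4 (0.139), Ptprc (0.32, 0.495), Rsad2 (0.0799) and Irf1 (0.155) did not.

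Several genes of plasma proteins were also higher in males. F2, prothrombin, was at 5.18 to 15.1 FPKM (median 8.84) in males and 1.45 to 2.88 FPKM (median 2.36) in females (1.78, SE 0.23, limma adjusted p = 6.05e-07), and the complement gene C4b, which has a close copy, at 29.8 to 54.5 FPKM (median 33.4) against 5.95 to 18.7 FPKM (median 11.2) (1.64). Mbl1, a lectin that starts complement, was at 5.29 to 8.07 FPKM (median 6.08) against 0.462 to 1.02 FPKM (median 0.672) (2.48), and Gc, the vitamin D carrier, at 3.88 to 20.2 FPKM (median 12.3) against 0.440 to 0.761 FPKM (median 0.598) (3.29). Ceruloplasmin Cp (1.02), tissue factor F3 (1.05), the carnosinase Cndp1 (1.38) and Apoh (1.13, at most 1.68 FPKM) were higher in males, all 8 genes without overlap. Ttr, transthyretin, went the other way at a level of at most 1.302 FPKM (-1.12). Of 27 complement and acute phase genes 9 were higher in males and 3 in females. Within the 300s C4b (0.114), Cp (0.0569), Cndp1 (0.0691), Apoh (0.266) and Ttr (0.198) did not pass.

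**Figure D5:**
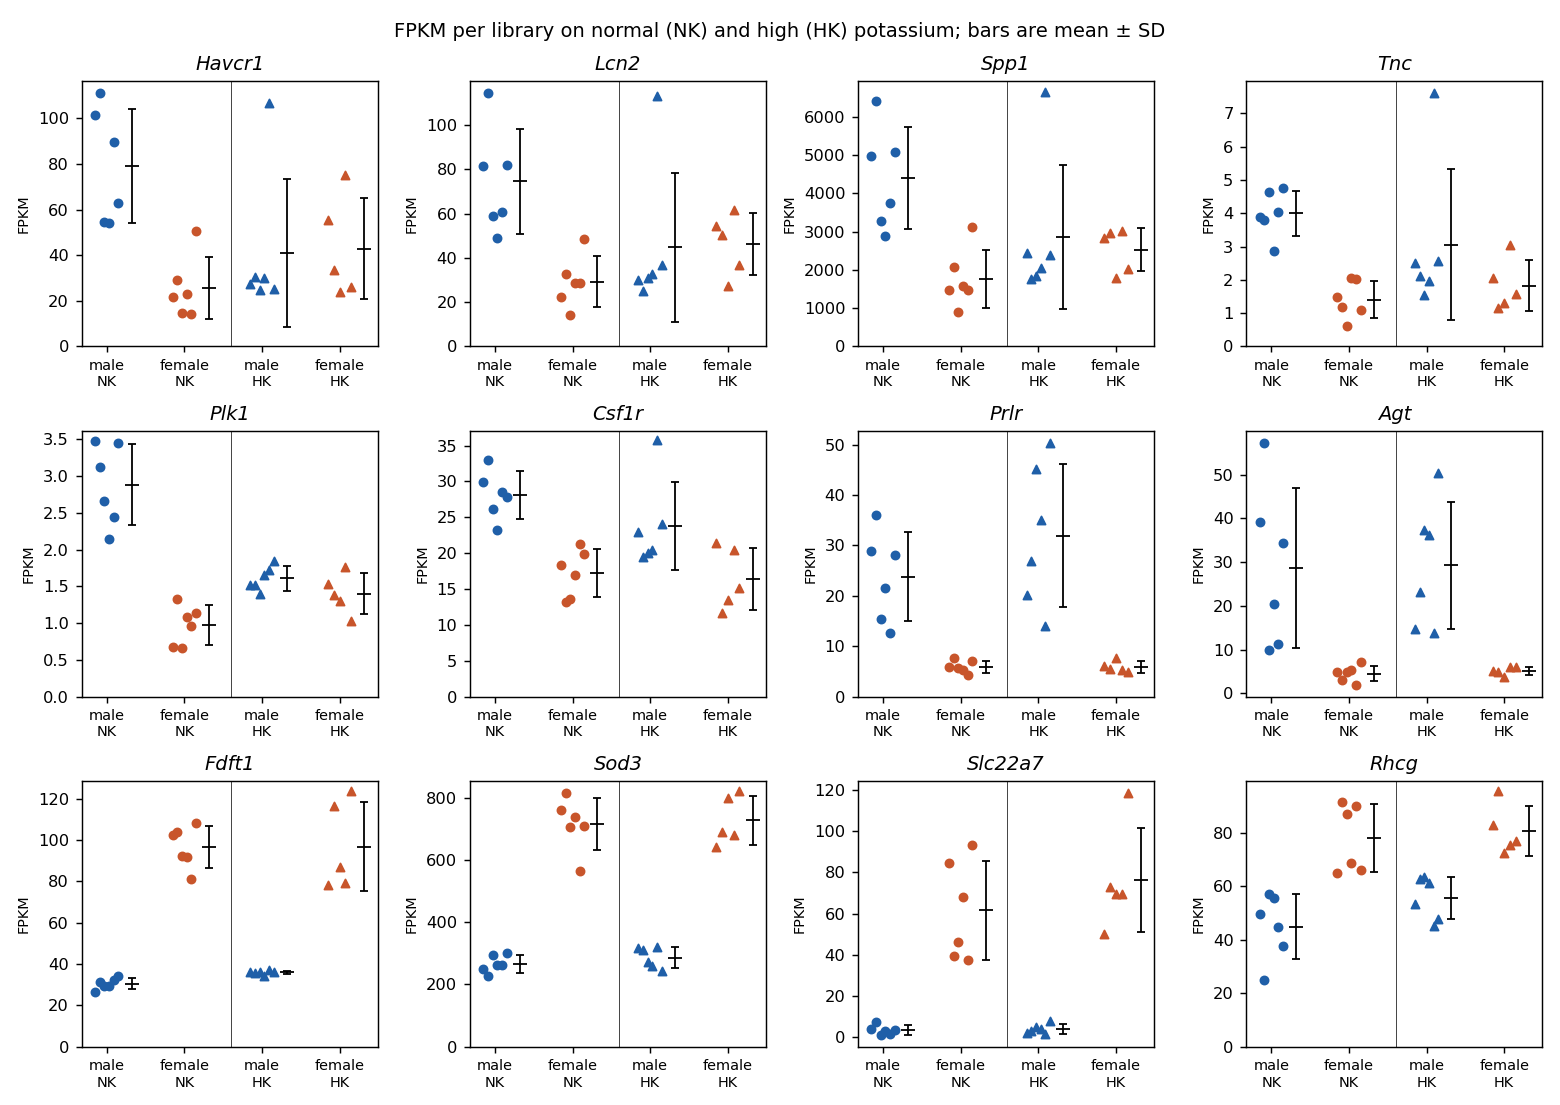
FPKM per library of 12 genes on normal (NK, circles) and high (HK, triangles) potassium, males in blue and females in orange, with mean ± SD (n = 6, female HK 5) beside the points. For Havcr1, Lcn2 and Spp1 a single HK male library stands above the other HK libraries, and the points of Agt, Prlr, Fdft1, Sod3 and Slc22a7 are apart between the sexes on both diets.

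Other leading genes had roles outside these lists. Higher in males were Reg3g, an antimicrobial lectin, at 6.30 to 18.5 FPKM (median 10.3) against 0.589 to 1.62 FPKM (median 1.06) (2.87), and Gng7, a G protein subunit, at 6.55 to 30.8 FPKM (median 12.7) against 0.795 to 2.29 FPKM (median 1.42) (2.77). Cacng5, a subunit of the voltage-gated calcium channel family, was at 5.03 to 30.3 FPKM (median 17.5) against 0.243 to 3.76 FPKM (median 1.90) (2.75, limma adjusted p = 0.000254), and did not pass within the 300s (1.88, adjusted p = 0.161). Higher in females were Armc3, of the armadillo repeat family, at 13.5 to 31.6 FPKM (median 20.1) against 0.335 to 0.856 FPKM (median 0.398) in males (-4.41), and Angpt2, a ligand of the Tie2 receptor of vessels, at 21.1 to 46.1 FPKM (median 30.1) against 1.80 to 3.21 FPKM (median 2.56) (-3.40). Of the transcription factors, Nkx1-2 was at 20.3 to 31.4 FPKM (median 26.0) in females and 1.08 to 3.69 FPKM (median 1.57) in males (-3.51), and Tcf24 at 6.97 to 24.1 FPKM (median 11.4) against 0.121 to 3.20 FPKM (median 1.07) (-3.05). Col17a1, a collagen of hemidesmosomes (-3.09), Oacyl, an acyltransferase-like gene (-2.98), and Cmtm2a, of the chemokine-like factor family, with 5 reads in all males and 2.69 to 6.08 FPKM (median 3.49) in females, completed the 30. No library of one sex overlapped with the other in any of the 30, and all 30 kept their call and direction when any 1 of the 12 libraries was left out. Within the 300s 29 did.

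On the potassium-deficient diet the sex difference was another one for many genes. Limma called 1384 of the 13824 genes for a difference between the sex difference on NK and on DK (9.96% of all genes tested; on DK itself 34.4% of all genes differed between the sexes). Of the male DK libraries 5 are numbered in the 200s. When the series entered as a covariate, 56 genes passed, and within the 300s, where 1 male DK library remains, 31. Tat was at 0.0596 to 1.65 FPKM in DK males and 26.1 to 68.8 FPKM in DK females, a difference of -5.37 against -1.48 on NK. Sds (-5.21 against -1.33) and Rbp4, the plasma carrier of retinol (-5.08 against -0.51 on NK), likewise lay further toward females on DK, Rbp4 without a call on NK. In Gstm1 (-2.14 against 1.54) and Hmox1 (-2.35 against 2.06) the sign differed. Genes whose difference on NK lay more toward females were Akr1b7 (-6.52 against -2.95 on DK), Oacyl (-2.98 against 0.38), Fsd1l (-2.60 against 0.21), the monocarboxylate transporter family member Slc16a14 (-0.54 against 2.41) and Hnmt, which inactivates histamine (-0.29 against 2.54). With the covariate, Tat, Akr1b7, Oacyl and Fsd1l were among the 56. The female NK value of Rbp4 rests on replicate 4, at 31.8 FPKM against a female median of 2.33.

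Clock genes were called at a share of 22.2%, near the 21% of all genes, and immediate early genes at 25%. Of 18 clock genes 2 were higher in males and 2 in females, and on HK 2 and 0. Arntl, the core activator BMAL1, was at 1.82 to 4.71 FPKM (median 3.85) in males and 1.15 to 3.17 FPKM (median 1.31) in females (0.90, limma adjusted p = 0.0132), and Nfil3, a repressor, differed by 0.91 (adjusted p = 0.0236). Ciart, another repressor, differed by -1.16 (adjusted p = 0.0387), all 3 with overlap. Nfil3 lost its call without female replicate 1 or 3 or male replicate 2 (up to 0.08), and Ciart without any of female replicates 1 to 4 or male replicates 1, 2, 3 and 6 (up to 0.106). The hour of tissue collection was not among the labels used. Of 16 immediate early genes 4 were higher in males and 0 in females. One was Fosl2, an AP-1 subunit, at 15.8 to 31.8 FPKM (median 24.7) against 6.44 to 13.8 FPKM (median 11.4) (1.15), with no overlap. None of these 4 genes passed within the 300s (adjusted p 0.364 for Arntl, 0.483 for Nfil3, 0.867 for Ciart and 0.0605 for Fosl2), where Ciart differed by -0.26 and Fosl2 by 0.73.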

How the data were processed

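Kidney cortex RNA was sequenced from poly-A selected libraries, per the labels' protocols. The authors deposited gene FPKM, and the submitters' processing notes name featureCounts 1.5.0-p3, StringTie 1.3.3b, HISAT2 2.0.5 and fastp. The genome build and whether counting used strand are not given in the sources used here, so overlapping genes may share reads. The low FPKM values are whole multiples of 1 read per gene (100% whole within 0.01), which gave the reads quoted and an alternative with voom. The main test was limma 3.58.1 (R 4.3.3, trend) on log2(FPKM + 0.5), which understates changes of low genes, with 1 mean per group over all 35 libraries and Benjamini-Hochberg adjustment over 14264 genes. Genes needed 1 FPKM in 5 libraries. Named genes are the 15 with the largest called difference in each direction, with a mean of at least 2 FPKM in 1 sex, up to 6 called genes per list with the largest differences, a panel named whatever its p, and the 5 with the largest diet differences in each direction. Some genes under this rule are not reported here, and Pecam1 matched no row. The members and lists were chosen with earlier results of these data known. The fit was tested on simulated data. Alternatives were the pseudocount, filter, scaling, library weights, number series, replicate block and leaving out each library.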

Additional observations from a re-analysis of the deposited data

Results flagged for a closer look

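Of the genes named here, 162 were looked at in the 6 libraries of each sex. In 28 of these groups 1 library stood apart from the other 5 by Dixon's test at the 95% level, which chance gives in about 1 in 20 groups. Male replicate 2 accounted for 7 of them, the most of any library. Female replicate 4 was the highest of its group at 2.49 FPKM for Oxtr (others 0.722 to 1.23), 78.3 FPKM for Acsl1 (others 43.0 to 47.9), 25.8 FPKM for Plin1 (others 0.839 to 4.50) and 31.8 FPKM for Rbp4 (others 1.73 to 3.48). Female replicate 5 was the highest of its group at 0.0719 FPKM for Cyp2c11 (others 0 to 0), 28.9 FPKM for Ptger3 (others 17.8 to 20.7), 118 FPKM for Kcnj1 (others 77.8 to 89.5) and 101 FPKM for Aqp6 (others 64.2 to 76.2). Female replicate 5 was the lowest of its group at 90.5 FPKM for Slc5a10 (others 125 to 145). Female replicate 6 was the highest of its group at 4.01 FPKM for Ace (others 1.90 to 2.69), 57.3 FPKM for Plin2 (others 31.8 to 39.8), 49.6 FPKM for Slc34a2 (others 11.1 to 24.3) and 3.17 FPKM for Arntl (others 1.15 to 1.89). Male replicate 2 was the highest of its group at 0.856 FPKM for Armc3 (others 0.335 to 0.509), 10.8 FPKM for Akr1c14 (others 1.52 to 2.85) and 3.59 FPKM for Trpv6 (others 2.10 to 2.56). Male replicate 2 was the lowest of its group at 36.0 FPKM for Gstm1 (others 57.2 to 68.3), 0.888 FPKM for Esrrb (others 1.69 to 2.07), 32.3 FPKM for Ptgds (others 93.5 to 126) and 6.85 FPKM for Scnn1b (others 12.99 to 15.9). Male replicate 3 was the highest of its group at 0.0439 FPKM for Akr1b7 (others 0 to 0). Male replicate 4 was the highest of its group at 0.188 FPKM for Ttr (others 0 to 0). Male replicate 4 was the lowest of its group at 16.1 FPKM for Gpnmb (others 21.7 to 24.3) and 40.9 FPKM for Cp (others 65.6 to 77.9). Male replicate 5 was the highest of its group at 439 FPKM for Hmox1 (others 21.4 to 68.8). Male replicate 6 was the highest of its group at 37.7 FPKM for Slc5a8 (others 22.7 to 25.6), 0.0551 FPKM for Tat (others 0 to 0) and 54.5 FPKM for C4b (others 29.8 to 36.5). The values of Cyp2c11 in females and of Akr1b7, Tat and Ttr in males are single or few reads against 0 in the other libraries.

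For 64 of these genes limma called the sex difference on normal potassium minus that on deficient potassium at an adjusted p under 0.05. The values that follow are these differences of differences in log2. When the series of the sample numbers entered as a covariate, 9 passed: Akr1b7, Nkx1-2, Oacyl, Cmtm2a, Ces1d, Tat, Abcg1, Plin1 and Fsd1l. The sex difference lay more toward males on normal potassium for Cyp2d3 (2.13), Cyp2d5 (1.85), Sox9 (1.35), Cyp4a2 (1.51), Gstm1 (3.68), Hmox1 (4.40), Hpgd (0.84), Edn1 (1.25), Ptger3 (0.66), Ace (1.32), Tat (3.89) and Sds (3.88). Further genes on this side were Abca1 (1.71), Abcg1 (1.62), Cyp24a1 (1.91), Gpt (1.59), Lcn2 (2.14), Gpnmb (1.67), Cp (1.19), F3 (0.85), Rbp4 (4.57), Arntl (2.33), Fosl2 (0.94) and Ttr (1.304). Further genes on this side were Apoh (2.21) and Nfil3 (1.69). It lay more toward females on normal potassium for Akr1b7 (-3.56), Armc3 (-1.50), Slc22a7 (-1.80), Nkx1-2 (-2.79), Angpt2 (-1.34), Tcf24 (-2.10), Oacyl (-3.37), Cmtm2a (-2.21), Cyp2b2 (-1.32), Oat (-2.34), Slc22a25 (-1.14) and Ces1d (-2.07). Also on this side were Akr1c14 (-1.65), Egf (-1.31), Oxtr (-1.11), Agtr1a (-0.60), Slc5a10 (-1.15), Slc15a2 (-1.24), Acox2 (-1.98), Fdft1 (-0.56), Slc9a3 (-0.78), Scnn1g (-0.98), Prss8 (-0.49) and Slc34a1 (-0.69). The list on this side goes on with Kcnj10 (-1.21), Umod (-0.90), Tmem207 (-1.01), Pdzk1 (-0.76), Tff3 (-2.06), Ptprc (-0.70), Gbp2 (-0.93), Vwf (-1.35), Plin1 (-2.35), Slc16a14 (-2.95), Hnmt (-2.83) and Fsd1l (-2.81). It ends with Lrp2 (-1.10) and Ciart (-2.64). The 5 male libraries on deficient potassium that are numbered in the 200s face male libraries on normal potassium that are all numbered in the 300s, and in females the imbalance is the opposite, with 4 libraries on normal potassium in the 200s and all 6 on deficient potassium in the 300s. Diet and number series can therefore hardly be told apart in either sex.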

How the results depend on the processing

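Each result was recomputed under 13 alternatives, under 1 more chosen after seeing the data (the number series as a covariate together with library sums) and without each library in turn. The count of 2901 called genes ranged from 2242 to 2994 when 1 library was left out, with 1040.0 to 1418 higher in males and 1195 to 1576 higher in females. It fell to 749 within the 300s (277 and 472) and to 1234 with the number series as a covariate (524 and 710), where fewer female libraries inform the comparison. Library sums gave 2670 genes higher in males and 840.0 higher in females, and with the covariate added 1418 genes, 897 and 521, with 12 of the 2901 in the opposite direction. The 338 called members of the lists became 113 within the 300s, 182 with the covariate and 202 with both. The 30 leading genes all passed without any 1 library. Marker sums that passed numbered 6 to 10. For the difference between NK and HK a weight per library gave 6 genes against 0, and 0 without any 1 library. For NK against DK the count of 1384 became 31 within the 300s, 56 with the covariate, 63 with both, 2156 with weights and 1129 to 1604 without 1 library.

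The 162 genes do not include Tagln, Des and Col1a1, each of which lost its call within the 300s and without at least 1 library. Of 146 called genes among the 162, none changed direction in any alternative, 64 did not pass within the 300s, 37 with the covariate, 13 without at least 1 library and 5 with library sums. Of the genes that did not pass, 5 changed sign: Slc22a6 (-0.001 without female replicate 5 or male replicate 4, at most 0.206 without another library), Slc5a2 (0.041 within the 300s, 0.002 with covariate and library sums), Slc16a14 (0.02 with both), Aqp1 (0.08 with library sums and 0.099 with quantile normalization) and Rbp4 (0.072 without female replicate 4, and as low as -0.7 without another library). Beyond the settings whose construction leaves fewer libraries, the cause was not tested. Samples with the same replicate number did not deviate together (correlations of -0.14 to 0.083). The numbers thus gave no sign of pairing, though such correlations cannot exclude a small shared effect. With the replicate number as a block 2758 genes were called, 1324 and 1434, and Mme and Lrp2 lost their calls (adjusted p = 0.05 and 0.0516, limma).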

Other observations

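Neighbouring genes were at times called in the same direction, a pattern looked for after the values were seen and given without a test. On chromosome 13, 6 adjacent tested genes were higher in males, with a median log2 difference of 0.94: Fcamr and Pigr, receptors of polymeric antibodies, Faim3, the cytokines Il24 and Il19, and Mapkapk2. On chromosome 1, Gprc5b, Gp2, Umod, Acsm5 and Acsm1 were higher in females (median -0.77). On chromosome 10 the homeobox genes Hoxb9, Hoxb8, Hoxb7 and Hoxb6, which pattern the kidney along the body axis, were higher in females (median -0.75), and on chromosome 19 so were Cmtm3, Cmtm2a, Cklf and Tk2 (median -0.73). Of 34 mitochondrial genes tested, 6 were higher in females and 0 in males, with a median of -0.45; the share called, 17.6%, lies below the 21% of all genes.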
